A study of Mus musculus with 6 samples.

Results

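The enzymes and transporters that carry glucose to lactate were followed isozyme by isozyme in mouse acute lymphoblastic leukaemia with and without the microRNA miR-182. The set held 32 genes, fixed by symbol: glucose and lactate transporters, the enzymes of glycolysis, the bifunctional regulators of phosphofructokinase and the kinases of pyruvate dehydrogenase. They matched 33 of the 55487 rows of the deposited count table, because Aldoa stood on 2 rows. There were 6 RNA libraries, 3 labelled wild type (WT, replicates 1, 3 and 4) and 3 labelled miR-182 knockout (KO, replicates 2, 3 and 4). Both genotypes shared the rest of the labelled design: mice transplanted with bone marrow cells at an age of 6 to 8 weeks, blood GFP followed from 3 weeks, a sort of bone marrow cells positive for GFP and for the B-lineage protein B220, and a time label of day 0. Per the design text, the B-lineage leukaemia was driven by BCR-ABL (P190); its T-lineage counterpart was not analysed here. The sorting note, which is the same for all 6 libraries, names wild-type and NC cells and does not say what NC means. The labels do not say that replicates were separate mice, so p-values measure only the spread between these libraries, which may be technical, and a genotype difference cannot be told apart from a difference between leukaemia clones.

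Glycolysis splits glucose to pyruvate, and lactate dehydrogenase and the monocarboxylate transporters then turn pyruvate into lactate and move it across the membrane. Most steps have several isozymes, encoded by separate genes, that differ in tissue, substrate affinity and regulation; Hk3, Pfkfb4 and Slc16a3, for example, are well known from myeloid or hypoxic cells. Hexokinase, phosphofructokinase-1 (PFK-1) and pyruvate kinase are the regulated steps, and leukaemic and normal proliferating lymphoid cells are known for high lactate output.

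Loss of the mature microRNA is not visible in mRNA counts, so the knockout could not be checked here. The mature sequence is shown with its seed, bases 2 to 8, in capitals (RefSeq, GRCm38.p6, chr6:30165962-30165986, minus strand), followed by each member's 3′ UTR site that holds the complement of the seed, TTGCCAA, in capitals (GENCODE transcripts on GRCm38, RNA sense written as DNA).
mmu-miR-182-5p: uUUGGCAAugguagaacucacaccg
Slc2a1: acttgccttctTTGCCAAgctaatctgta
Slc2a3: agtttttacatTTGCCAAtggccatcttg
Aldoc: tgtctagaagcTTGCCAAgggctatgacc
Slc16a3: gggagtctaatTTGCCAAtctcaccagac
The 7-base match stood in 4 of the 33 rows with an annotated 3′ UTR, or 12.1%, beside 1428 of 11972 tested genes, or 11.9%. It began at base 365 of 1537 in Slc2a1, 2019 of 2122 in Slc2a3, 847 of 1427 in Aldoc and 1341 of 2736 in Slc16a3. Of these genes, 2 were lower in KO (Slc2a3 and Slc16a3), 2 did not pass (Slc2a1 and Aldoc) and 0 were higher. A match describes letters and is not a tested site.

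Library totals ran from 17704382 to 29237035 counts, at which 3 counts correspond to 0.103 to 0.169 CPM (counts scaled to library totals of 1e6). B-lineage markers were high in every library: their summed level was 6590 to 6966 CPM in WT and 6454 to 7319 CPM in KO, with 4 of 12 higher, 4 lower and 4 not passed. Pax5 stood at 906 ± 56.4 CPM in WT and at 1366 ± 112 CPM in KO, Ebf1 at 370 ± 16.9 and 563 ± 52.5, and Cd79a at 1261 ± 147 and 1096 ± 120 (SD, n = 3). The 4 that fell, named after their values were seen, were Blnk (583 ± 51.6 CPM in WT, 311 ± 15.9 in KO), Ptprc (571 ± 189, 281 ± 16.2), Rag1 (230 ± 97.8, 108 ± 29.9) and Rag2 (31.4 ± 13, 11.6 ± 4.54). Neutrophil transcripts were also present in each library. The 18 neutrophil markers together reached 42636, 17495 and 30710 CPM in WT replicates 1, 3 and 4, but only 1442, 3418 and 7272 CPM in KO replicates 2, 3 and 4. All 18 were lower in KO, and none of the defining markers was at 0 (Ly6g, 35.7 to 140 CPM in WT and 1.91 to 13.3 CPM in KO). Elane, Mpo and Prtn3 fell least (2.25-, 2.28- and 2.32-fold), and the libraries of Elane and Mpo overlapped between the genotypes. In WT all of these were lowest in replicate 1, where the sum was highest (Mpo, 68.4, 142 and 196 CPM). Also lower were 11 of 11 monocyte markers and 5 of 5 tested T cell markers, from a list of 9. Of those 5, all but Lck stood at 0.764 CPM or less in KO, and Cd8a overlapped. In RNA of a whole sort, fewer cells of a type and less RNA per cell cannot be told apart.

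Glycolytic genes fell more often than they rose in the KO libraries, and within PFK-1 and the PFKFB enzymes isozymes of one step were called in opposite directions. Of the 31 rows with enough counts to test, 13 were lower in KO and 4 higher at an adjusted p below 0.05 (edgeR quasi-likelihood test, Benjamini-Hochberg adjustment over all genes tested), and 14 did not pass. Over all 14481 genes tested the same rule called 28.5% lower and 23.9% higher, 52.5% in all, so that the share called among these genes was close to the background. The median log2 fold change was -0.30 over the 31 rows and -0.0015 over all genes tested. The genotypes did not overlap in any library for 19 of the 31 rows, where 64% of all genes tested did not overlap. The genes called higher were Pfkl, Pfkm, Pfkfb1 and Pfkfb2; without WT replicate 4 this count was 2. With the neutrophil marker level of each library as a covariate, 0 members were higher and 1 was lower (Pfkp), and the share called over all genes was 3.83%. The log2 fold change in that fit was 0.86 for Pfkfb1, 0.91 for Pfkfb2, -0.64 for Pgam1 and -0.53 for Pdk1. Without the covariate these values were 0.77, 0.68, -0.63 and -0.38. It was smaller in size for Aldoa (-0.60 beside -0.75), Gpi1 (-0.51 beside -0.65) and Pfkl (0.13 beside 0.31). Much smaller were Hk3 (-0.15 beside -3.03), Pfkfb4 (-0.18 beside -2.96), Slc16a3 (-0.57 beside -3.43) and Slc2a3 (-0.34 beside -2.02). The cause was not tested. Since no KO library reached the neutrophil sum of a WT library, genotype and that level cannot be fully told apart. Levels in the text are TMM-normalised CPM, and each log2 fold change is KO against WT, with SE its standard error.

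**Figure D1:**
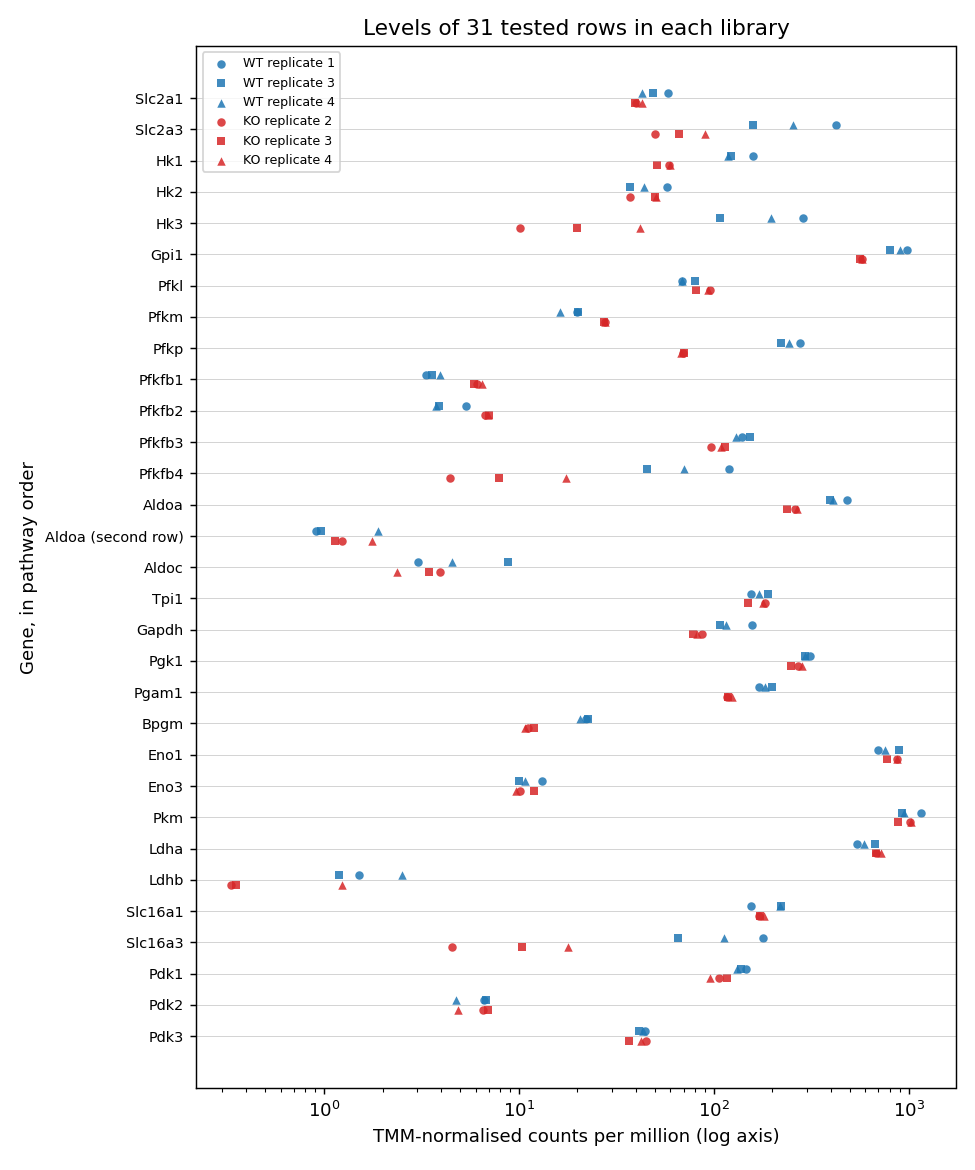
Level of each of the 31 tested rows in each library, in TMM-normalised CPM on a log axis, in pathway order; blue points are WT, red points KO, and the shape marks the library. The WT and KO points stand apart for Pfkp (222 to 276 against 68.3 to 70 CPM) and mix for Tpi1, Eno1 and Pkm.

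**Figure D2:**
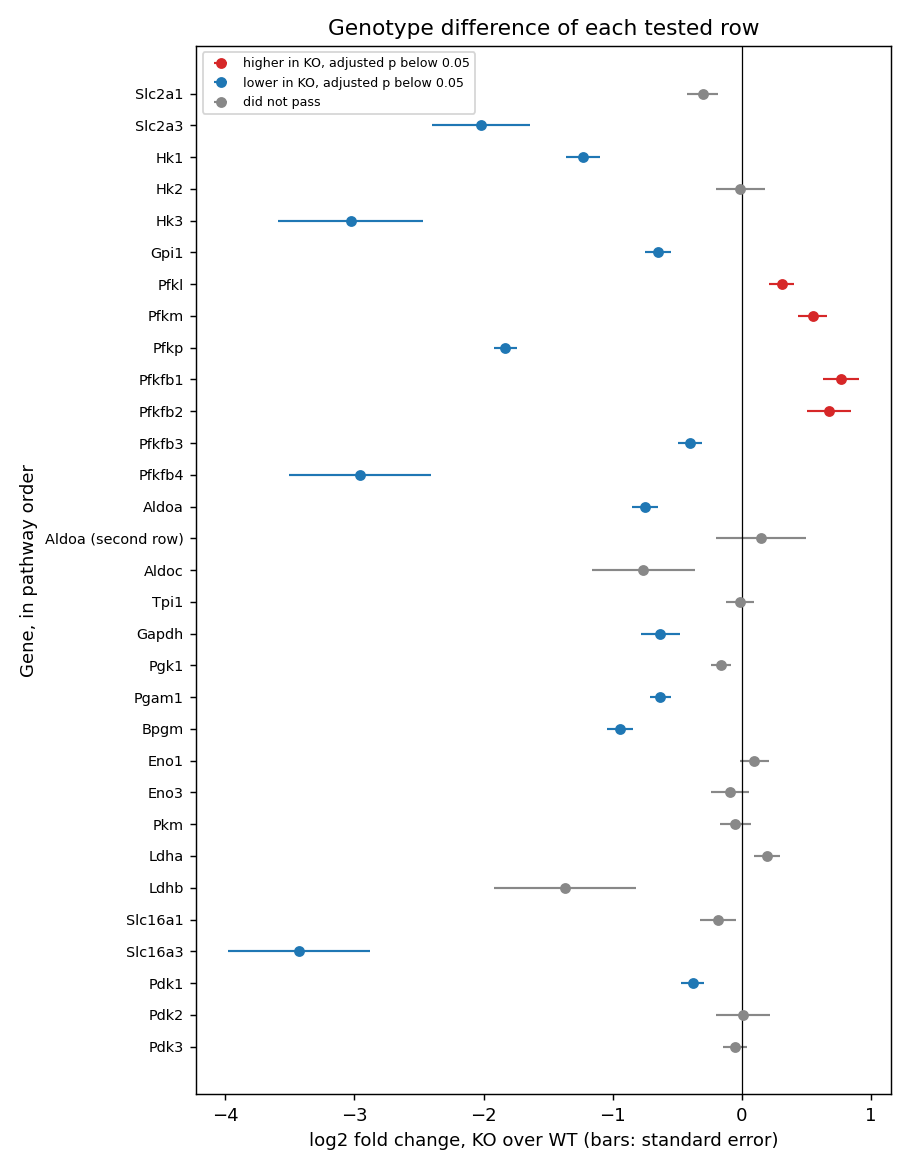
Log2 fold change of each tested row, KO over WT, with its standard error; red is higher and blue lower at an adjusted p below 0.05, and grey did not pass. Slc16a3 (-3.43), Hk3 (-3.03) and Pfkfb4 (-2.96) lie farthest to the left and Pfkfb1 (0.77) farthest to the right.

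Of the glucose transporters, Slc2a3 fell and Slc2a1 did not pass. Slc2a3, which encodes the high-affinity transporter GLUT3 (ENSMUSG00000003153, GRCm38 chr6:122727809-122801640, minus strand), stood at 426, 159 and 255 CPM in WT replicates 1, 3 and 4, and at 50.2, 66.5 and 90.4 CPM in KO replicates 2, 3 and 4. Every KO library lay below every WT library, and the fitted difference was 4.05-fold (log2 -2.02, SE 0.38, adjusted p = 0.00455). Slc2a1, which encodes the widely expressed GLUT1, stood at 58.6, 48.8 and 43 CPM in WT and at 39.7, 39.5 and 43 CPM in KO (log2 -0.30, SE 0.12, adjusted p = 0.0726). WT replicate 4 and KO replicate 4 were equal there, so the groups met, and without WT replicate 4 the gene passed (-0.40, adjusted p = 0.036). Per kilobase of exon, Slc2a3 made up 71.1% ± 8.79 of the pair in WT and 44.4% ± 6.23 in KO (SD, n = 3). The exon length deposited by the authors gave 96.4% and 89.8%, as it lists 601 bases for Slc2a3 where the union of its exons has 7245.

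Of the hexokinases, which trap glucose as its phosphate, Hk1 and Hk3 fell and Hk2 did not pass. Hk3, an isozyme typical of myeloid cells (ENSMUSG00000025877, chr13:55005985-55021385, minus strand), stood at 287, 108 and 197 CPM in WT replicates 1, 3 and 4 and at 10.2, 19.8 and 42.1 CPM in KO replicates 2, 3 and 4. All WT libraries were above all KO libraries, and in both genotypes the order of the libraries was that of the neutrophil sum. The log2 fold change was -3.03 (SE 0.56, adjusted p = 0.00454), -3.67 without KO replicate 4, and -0.15 (adjusted p = 0.843) with the neutrophil level as a covariate. Hk1, the mitochondria-bound isozyme of most tissues (ENSMUSG00000037012, chr10:62268855-62379908, minus strand), stood at 159, 123 and 119 CPM in WT and at 59.3, 51.3 and 59.7 CPM in KO. The KO libraries lay close together and below all WT libraries (log2 -1.23, SE 0.13, adjusted p = 0.000559). The neutrophil sum was 1442 to 7272 CPM in KO and 17495 to 42636 CPM in WT, and its part in the level of Hk1 was not tested. Hk2, the isozyme induced in many tumours, stood at 57.6, 37.2 and 44 CPM in WT and at 37.2, 49.8 and 50.5 CPM in KO, with overlapping groups (log2 -0.01, SE 0.19, adjusted p = 0.962).

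The make-up of the hexokinase step therefore differed between the genotypes. Per kilobase of exon, Hk3 took 73.4%, 58.6% and 71.6% of the 3 hexokinases in WT and 17.4%, 27.2% and 42.5% in KO. Hk2 took 9.08%, 12.5% and 9.87% in WT and 39%, 42.3% and 31.4% in KO, while Hk1 took 17.5%, 28.9% and 18.6% in WT and 43.6%, 30.5% and 26% in KO. Hk3 held the largest share in every WT library, and its share was lower in every KO library. The summed level of the step was 77 ± 28.3 CPM per kilobase in WT and 20.9 ± 5.55 in KO. Which isozyme led in KO depended on the length used: per kilobase of the exon union a different one led in each KO library, whereas with the longest transcript Hk1 led in all of them, at 58.3%, 44.1% and 38.6%.

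PFK-1, the committed step of glycolysis, is a tetramer of liver (Pfkl), muscle (Pfkm) and platelet (Pfkp) type subunits, and here the platelet type fell while the others rose. Pfkp (ENSMUSG00000021196, chr13:6579768-6648777, minus strand) stood at 276, 222 and 243 CPM in WT replicates 1, 3 and 4 and at 69.7, 70 and 68.3 CPM in KO replicates 2, 3 and 4. The KO libraries were nearly equal and all below WT, with a fitted difference of 3.56-fold (log2 -1.83, SE 0.09, adjusted p = 2.98e-05), and Pfkp was called under each of the 17 alternatives, the neutrophil covariate included (-1.71, adjusted p = 0.0101). Pfkm (ENSMUSG00000033065, chr15:98092589-98132451, plus strand) stood at 20, 20.1 and 16.3 CPM in WT and at 27.7, 27.4 and 27.7 CPM in KO. All KO libraries were above all WT libraries (log2 0.55, SE 0.11, adjusted p = 0.00482; 0.50, adjusted p = 0.371, with the neutrophil covariate). Pfkl stood at 69.1, 80.4 and 68.7 CPM in WT and at 96, 80.7 and 93.4 CPM in KO. The lowest KO library barely cleared the highest WT library (log2 0.31, SE 0.10, adjusted p = 0.0368), and the call was lost without WT replicate 1 (adjusted p = 0.0883), WT replicate 4 (0.125), KO replicate 2 (0.096) or KO replicate 4 (0.0822). With the neutrophil covariate the value of Pfkl was 0.13 (adjusted p = 0.823).

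The log2 ratio of Pfkl to Pfkp was -2.00, -1.47 and -1.82 in WT replicates 1, 3 and 4, whereas it was 0.46, 0.21 and 0.45 in KO replicates 2, 3 and 4. It was negative in all WT libraries and positive in all KO libraries, a difference of 2.13, and gene length cancels in such a difference. Per kilobase of exon, Pfkp made up 52.7% ± 4.21 of the PFK-1 transcripts in WT and 19.2% ± 1.07 in KO, and Pfkl 31.2% ± 3.37 and 50% ± 2.28 (SD, n = 3). The leading subunit was thus Pfkp in WT and Pfkl in KO in every library; the summed level of the step was 35 ± 1.84 CPM per kilobase in WT and 26.9 ± 1.25 in KO. With the exon length deposited by the authors, the shares of Pfkp were 69.4% and 33.1%.

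The PFKFB enzymes make and break the bisphosphate that activates PFK-1, and their 4 genes moved in both directions. Pfkfb4 (ENSMUSG00000025648, chr9:108991778-109032228, plus strand), a hypoxia-inducible member, stood at 120, 45.6 and 70.1 CPM in WT replicates 1, 3 and 4 and at 4.44, 7.88 and 17.4 CPM in KO replicates 2, 3 and 4. The groups stood well apart, and the libraries kept the order of the neutrophil sum in both genotypes. The log2 fold change was -2.96 (SE 0.55, adjusted p = 0.00439), -3.62 without KO replicate 4 and -0.18 (adjusted p = 0.856) with the neutrophil covariate.

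Pfkfb3, the strongly kinase-active member of growing cells, stood at 140, 153 and 130 CPM in WT and at 96.8, 114 and 109 CPM in KO, a smaller fall with no overlap (log2 -0.40, SE 0.09, adjusted p = 0.0109; 0.0689 without KO replicate 2). Pfkfb1, first known from liver and muscle, stood at 3.34, 3.57 and 3.94 CPM in WT and at 6.07, 5.92 and 6.46 CPM in KO, and all KO libraries were above WT (log2 0.77, SE 0.14, adjusted p = 0.00472). Pfkfb2, first known from heart, stood at 5.34, 3.88 and 3.77 CPM in WT and at 6.69, 7.06 and 6.95 CPM in KO (log2 0.68, SE 0.17, adjusted p = 0.0155; 0.0594 without WT replicate 4). The genes that rose were thus the low-level ones: per kilobase of exon Pfkfb1 held 1.86% to 2.97% of the step in WT and 7.71% to 9.35% in KO, and Pfkfb2 1.57% to 1.72% and 4.65% to 5.71%. Pfkfb3 held 41.4%, 65.3% and 52% in WT and 79.3%, 78.8% and 70.2% in KO, beside 55%, 30.1% and 43.5% of Pfkfb4 in WT and 5.64%, 8.45% and 17.4% in KO.

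**Figure D3:**
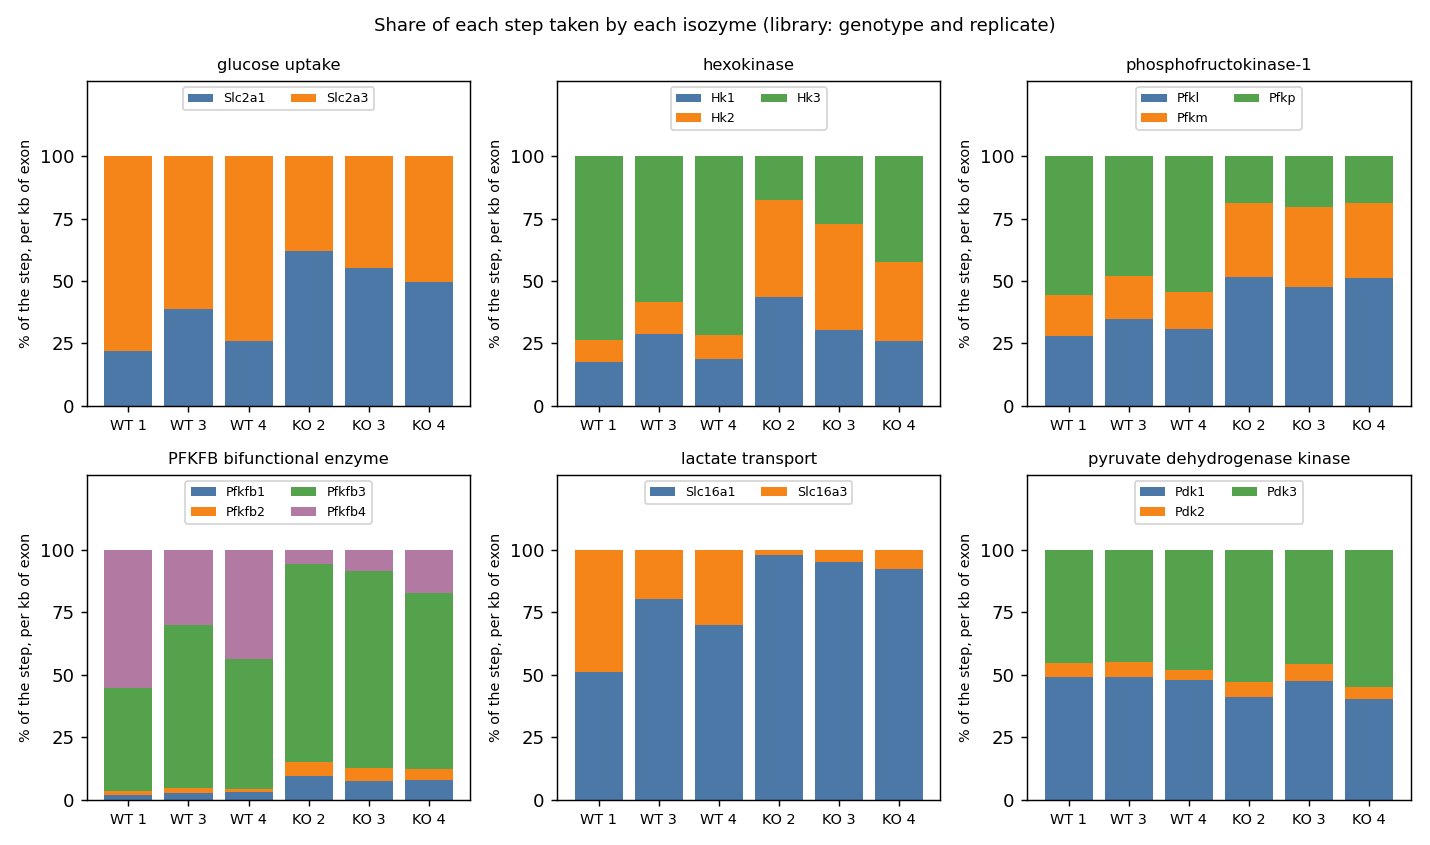
Share of each step taken by each isozyme in each library, in percent of the summed CPM per kilobase of exon, for 6 steps; each bar is 1 library. The share of Pfkp was 47.9% to 55.8% in WT and 18.6% to 20.5% in KO, and that of Slc16a3 19.7% to 48.9% and 2.17% to 7.59%.

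Of the enzymes from glucose phosphate to the triose phosphates, Gpi1 and Aldoa fell and Tpi1 and Aldoc did not pass. Gpi1, phosphoglucose isomerase (ENSMUSG00000036427, chr7:34201330-34230336, minus strand), stood at 984, 798 and 900 CPM in WT and at 577, 565 and 573 CPM in KO. The KO libraries were almost equal and all below WT (log2 -0.65, SE 0.10, adjusted p = 0.00216). Aldoa, the main aldolase, stood at 482, 393 and 410 CPM in WT and at 262, 238 and 266 CPM in KO, again without overlap (log2 -0.75, SE 0.10, adjusted p = 0.00144). Its second row, ENSMUSG00000114515, lies just upstream of the first on the same strand of chromosome 7 and held only 0.911 to 1.89 CPM, with a log2 value of 0.15 (adjusted p = 0.738). Aldoc, the brain-type aldolase, stood at 3.04, 8.85 and 4.52 CPM in WT and at 3.96, 3.48 and 2.38 CPM in KO, with overlap (log2 -0.76, SE 0.40, adjusted p = 0.151; called, at -1.05, without WT replicate 1, adjusted p = 0.0409). Tpi1, triosephosphate isomerase, stood at 155, 189 and 170 CPM in WT and at 183, 150 and 178 CPM in KO, with mixed libraries (log2 -0.01, SE 0.11, adjusted p = 0.954).

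In the pay-off phase of the pathway Gapdh, Pgam1 and Bpgm fell, and Pgk1, Eno1, Eno3 and Pkm did not pass. Pgam1, the phosphoglycerate mutase of most tissues, stood at 171, 199 and 184 CPM in WT and at 117, 118 and 124 CPM in KO (log2 -0.63, SE 0.08, adjusted p = 0.00106). Its muscle isozyme Pgam2 had 2 counts in all libraries together and was not tested. Bpgm, which makes the bisphosphoglycerate that tunes haemoglobin in red cells (ENSMUSG00000038871, chr6:34476207-34505613, plus strand), stood at 22, 22.6 and 20.5 CPM in WT and at 11.2, 11.9 and 10.7 CPM in KO. Both genotypes were tight and did not overlap (log2 -0.94, SE 0.10, adjusted p = 0.000498). Of the red-cell markers 0 of 6 tested passed, and their sum, at 246, 25.1 and 55.4 CPM in WT and at 124, 97.5 and 118 CPM in KO, varied too much in WT to show a difference; their part in the fall of Bpgm was not tested.

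Gapdh, glyceraldehyde-phosphate dehydrogenase and a common reference gene, stood at 158, 108 and 115 CPM in WT and at 86.8, 78.1 and 81.8 CPM in KO, with every KO library below WT (log2 -0.63, SE 0.15, adjusted p = 0.0111). Its level is uncertain: 78 other genes, 75 of them annotated pseudogenes, carry near-identical transcripts and held 20156 counts beside 13600 of Gapdh itself. With those counts added, an alternative chosen after seeing the data, the log2 fold change was -0.33 (adjusted p = 0.0321). Pgk1, phosphoglycerate kinase, stood at 310, 295 and 294 CPM in WT and at 272, 249 and 284 CPM in KO, without overlap but short of the threshold (log2 -0.16, SE 0.08, adjusted p = 0.121).

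Eno1, the enolase of most tissues, stood at 700, 893 and 752 CPM in WT and at 869, 777 and 873 CPM in KO, with overlap (log2 0.10, SE 0.11, adjusted p = 0.475). The muscle enolase Eno3 stood at 11.3 ± 1.62 CPM in WT and at 10.6 ± 1.22 CPM in KO (log2 -0.09, SE 0.15, adjusted p = 0.645), and the neuronal Eno2 had 17 counts in all and was not tested. Pkm, pyruvate kinase, stood at 1157, 922 and 949 CPM in WT and at 1013, 880 and 1030 CPM in KO. Its libraries mixed (log2 -0.05, SE 0.12, adjusted p = 0.744), and gene counts cannot separate its M1 and M2 splice forms. The lower end of the pathway thus held both genes that fell and genes whose libraries overlapped.

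At the lactate end, the transporter Slc16a3 fell, whereas Ldha and Slc16a1 did not pass. Slc16a3, which encodes the lactate exporter MCT4 (ENSMUSG00000025161, chr11:120948480-120960868, plus strand), stood at 179, 65.4 and 113 CPM in WT replicates 1, 3 and 4 and at 4.54, 10.4 and 17.9 CPM in KO replicates 2, 3 and 4. The groups did not overlap and the fitted difference was 10.7-fold (log2 -3.43, SE 0.55, adjusted p = 0.00272), the libraries followed the order of the neutrophil sum in both genotypes, and the value was -0.57 (adjusted p = 0.5) with the neutrophil covariate. Slc16a1, which encodes MCT1, stood at 156, 222 and 219 CPM in WT and at 170, 173 and 181 CPM in KO. WT replicate 1 lay below all KO libraries and the other WT libraries above them (log2 -0.18, SE 0.14, adjusted p = 0.29; called, at -0.34, without WT replicate 1, adjusted p = 0.00915). The log2 ratio of Slc16a1 to Slc16a3 was -0.20, 1.76 and 0.95 in WT and 5.20, 4.05 and 3.33 in KO, a difference of 3.36 with no overlap. Per kilobase of exon Slc16a3 made up 48.9%, 19.7% and 30.1% of the pair in WT and 2.17%, 4.75% and 7.59% in KO.

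Ldha, the lactate dehydrogenase subunit that favours lactate formation, stood at 546, 672 and 588 CPM in WT and at 681, 681 and 719 CPM in KO. The KO libraries lay just above the highest WT library, short of the threshold (log2 0.20, SE 0.10, adjusted p = 0.117), and without WT replicate 3 the gene passed (0.29, adjusted p = 0.018). Ldhb, the heart-type subunit, was scarce, at 1.52, 1.19 and 2.52 CPM in WT and at 0.334, 0.355 and 1.24 CPM in KO, which is 7 to 44 counts a library. Its groups overlapped (log2 -1.37, SE 0.55, adjusted p = 0.0726), and without KO replicate 4 it passed (-2.28, adjusted p = 0.011). Ldha made up 99.4% of the lactate dehydrogenase transcripts per kilobase in WT and 99.8% in KO.

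Pyruvate dehydrogenase kinases shut pyruvate out of the mitochondrial cycle, and of the 3 genes only Pdk1 passed. Pdk1, a hypoxia-inducible kinase, stood at 146, 138 and 131 CPM in WT and at 107, 117 and 95.5 CPM in KO, with no overlap (log2 -0.38, SE 0.09, adjusted p = 0.012). The call was lost without KO replicate 2 (adjusted p = 0.0618) and without KO replicate 4 (0.0508). Pdk2 stood at 6.06 ± 1.15 CPM in WT and at 6.14 ± 1.12 CPM in KO (log2 0.01, SE 0.21, adjusted p = 0.962), and Pdk3 at 43 ± 1.51 and 41.5 ± 4.25 CPM (log2 -0.05, SE 0.09, adjusted p = 0.661). Per kilobase of exon Pdk1 and Pdk3 held 48.7% and 46.1% of the step in WT and 43% and 50.9% in KO, but their order in KO depended on the length used and differed between libraries: with the longest transcript Pdk1 held 45.9%, 52.3% and 45.2%, and Pdk3 47.5%, 40.5% and 49.4%.

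Across the steps with several isozymes, 23 pairs were compared by their log2 ratio in each library. In 14 pairs the genotypes did not overlap, and each of these gave p = 0.1, the smallest that a two-sided exact permutation test can give with 3 against 3 libraries (0.164 after adjustment over the pairs), so no pair could pass 0.05. Of the 19 pairs with at least 10 counts of both genes in every library, 13 did not overlap. Among single genes, 64% of all those tested did not overlap. That share was not computed for ratios of other genes. Many of the pairs share a gene, such as Pfkfb4 or Hk3, so the pairs are not independent. Ratios to Pfkfb4 differed by 3.83 for Pfkfb1, 3.76 for Pfkfb2 and 2.68 for Pfkfb3, on the log2 scale, KO minus WT. Hk2 to Hk3 differed by 3.15, Hk1 to Hk3 by 1.93 and Hk1 to Hk2 by -1.22. Pfkm to Pfkp differed by 2.39, but Pfkl to Pfkm by only -0.25 with overlap (p = 0.2, exact permutation test). Pfkfb1 to Pfkfb2 (0.07), Aldoa to Aldoc (-0.13) and Eno1 to Eno3 (0.19) overlapped.

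The members that fell differed in how they varied among libraries of one genotype. Among the KO libraries the neutrophil sum varied 5.04-fold, Hk3 4.12-fold, Slc16a3 3.95-fold and Pfkfb4 3.92-fold, and Slc2a3 1.8-fold. Pfkp and Gpi1 varied 1.02-fold over the same libraries, Pgam1 1.06-fold, Bpgm 1.11-fold, Aldoa 1.12-fold and Hk1 1.16-fold. Among the WT libraries the sum varied 2.44-fold. Pfkp varied 1.24-fold there, Gpi1 1.23-fold and Aldoa 1.22-fold, each in the order of the sum. Hk1 varied 1.34-fold, Pgam1 1.16-fold and Bpgm 1.1-fold, in another order. The part of neutrophil RNA in these levels was not tested. Of the 30 genes with at least 50 counts (the second Aldoa row left out), 5 had their libraries in the order of the neutrophil sum within both genotypes: Slc2a3, Hk2, Hk3, Pfkfb4 and Slc16a3. The share of all genes in that order was not computed. Per 1000 CPM of that sum, Hk3 stood at 6.74, 6.15 and 6.41 CPM in WT and at 7.09, 5.79 and 5.79 CPM in KO, and Pfkfb4 at 2.81, 2.61 and 2.28 and at 3.08, 2.3 and 2.4, so both overlapped. Slc16a3 stood at 4.21, 3.74 and 3.68 CPM per 1000 in WT and at 3.15, 3.04 and 2.46 in KO, without overlap. Hk1 stood at 3.72, 7.02 and 3.86 in WT and at 41.1, 15 and 8.21 in KO on the same scale. With the neutrophil covariate Hk1 stood at -1.08 (adjusted p = 0.123) and Bpgm at -1.05 (adjusted p = 0.0687), close to their values without it but no longer called.

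**Figure D4:**
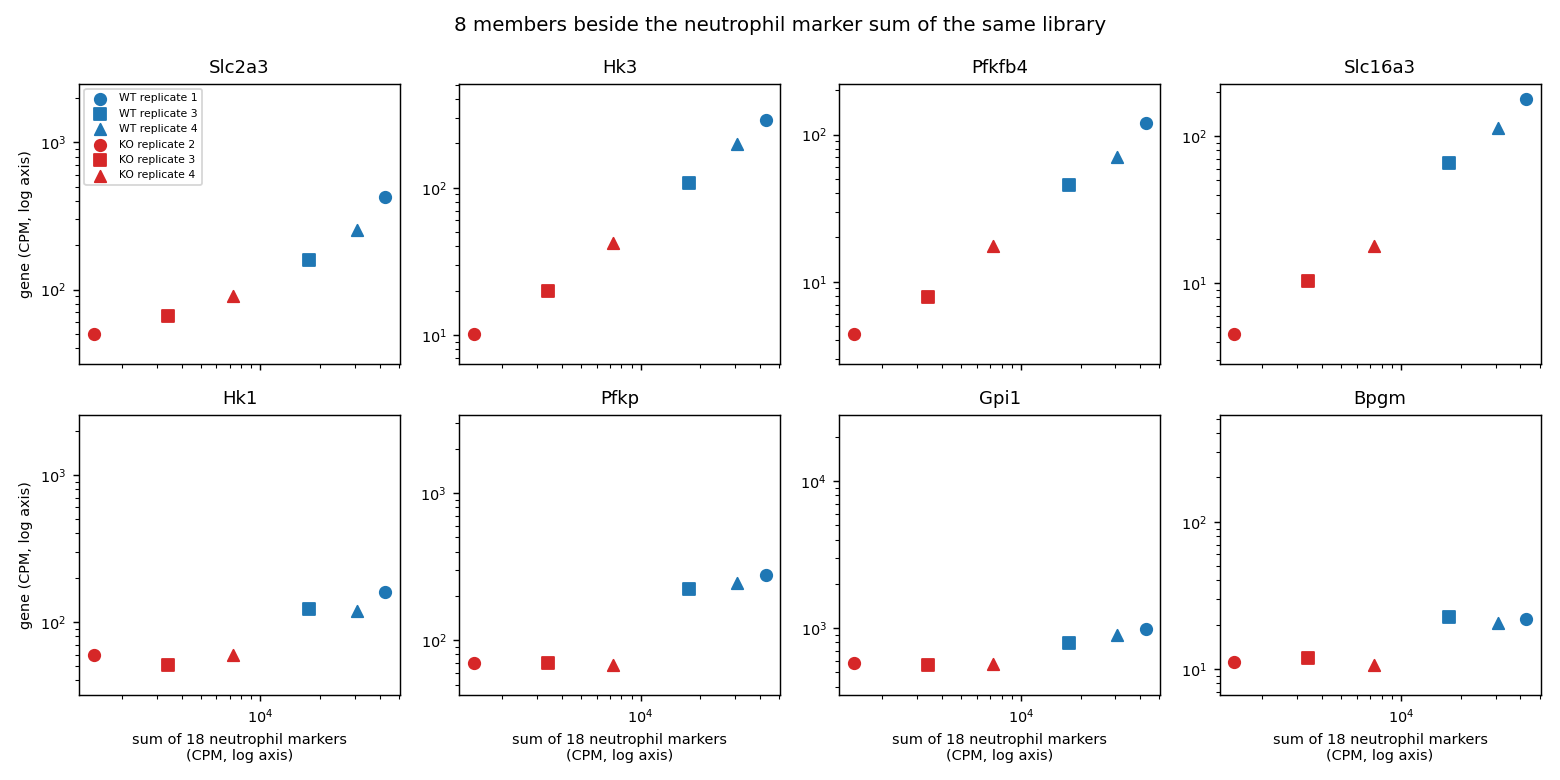
Level of 8 members in each library (CPM, log axis) against the summed level of 18 neutrophil markers in the same library (CPM, log axis); blue is WT, red is KO, and every panel spans the same fold range. Slc2a3, Hk3, Pfkfb4 and Slc16a3 climb with the sum in both genotypes. Pfkp and Gpi1 varied 1.02-fold over KO libraries, whose sums differed 5.04-fold but were all low (1442 to 7272 CPM). Over WT libraries, whose sums differed 2.44-fold (17495 to 42636 CPM), Pfkp varied 1.24-fold and Gpi1 1.23-fold, both in the order of the sum. The part of neutrophil RNA in these levels was not tested.

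Neighbouring pathways were read from gene lists in the same fit, against the 28.5% of all genes tested that were lower and the 23.9% that were higher. The lists were chosen with earlier results of these data known, and the genes named are those with the smallest p in each list. Of 10 pentose phosphate genes 6 fell, 2 rose and 2 did not pass (median -0.43). G6pdx, which opens that pathway, stood at 336, 183 and 258 CPM in WT and at 71.9, 75.9 and 105 CPM in KO (log2 -1.62, SE 0.24, adjusted p = 0.00212), and Pgd and Taldo1 fell by 1.40 and 1.09 on the log2 scale (adjusted p = 0.00228 and 0.00304). Of 14 glycogen genes 7 fell and 1 rose (median -0.31): Pygl, the liver-type phosphorylase, fell by 2.80 (adjusted p = 0.00231), Gyg by 1.17 and the branching enzyme Gbe1 by 0.94, and the phosphorylase kinase subunit Phka1 rose by 0.51. Of 7 tested isozymes and transporters outside the set 4 fell and 3 did not pass (median -2.13): the transporter Slc2a6 (-2.44, adjusted p = 0.00361), the monocarboxylate transporter Slc16a7 (-3.08, adjusted p = 0.00388), the ADP-dependent glucokinase Adpgk (-2.13, adjusted p = 0.00422) and the testis-type Ldhc, which had at most 0.0979 CPM in any KO library. In G6pdx, Pgd, Taldo1, Pygl, Slc2a6, Slc16a7, Adpgk and Ldhc the libraries stood in the order of the neutrophil sum within both genotypes. Pygl, for example, stood at 776, 338 and 565 CPM in WT and at 45.3, 74.8 and 121 CPM in KO. The part of neutrophil RNA in these falls was not tested.

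Genes that take pyruvate onward were called about as often as all genes. Of 11 genes of pyruvate entry into mitochondria 2 rose, 4 fell and 5 did not pass, beside 52.5% called over all genes (median -0.055): the phosphatase Pdp1, which reverses the Pdk kinases, rose by 0.63 (SE 0.09, adjusted p = 0.00221), while the shared dehydrogenase subunit Dld fell by 0.43, the carrier Mpc2 by 0.58 and pyruvate carboxylase, Pcx, by 0.75. Of 4 tested gluconeogenic genes Pck2, the mitochondrial carboxykinase, fell by 1.08 (adjusted p = 0.000208) and Fbp1 rose by 0.66 (adjusted p = 0.0189). Of 7 tested genes of glucose and energy sensing 5 fell and 1 rose (median -0.56), among them the AMP kinase subunits Prkaa2 (-0.86, adjusted p = 0.000944) and Prkaa1 (-0.47, adjusted p = 0.00912), Mlx, the partner of the glucose-sensing Mlxip (-0.56, adjusted p = 0.00154), and the arrestin Arrdc4 (-2.95, adjusted p = 0.00259). The libraries of Arrdc4 and Prkaa1 stood in the order of the neutrophil sum within both genotypes. Arrdc4 stood at 9.77, 3.13 and 6.23 CPM in WT and at 0.621, 0.674 and 1.11 CPM in KO. Prkaa1 stood at 66, 50.8 and 59.1 CPM in WT and at 40.7, 42.3 and 43.6 CPM in KO. The part of neutrophil RNA in both falls was not tested.

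The hypoxia factor HIF, which switches on many glycolytic genes, was followed through its own genes and a list of other known targets. Hif1a fell by 0.59 (SE 0.06, adjusted p = 0.000476) and the asparagine hydroxylase Hif1an by 0.30 (adjusted p = 0.0157), the prolyl hydroxylase Egln2 rose by 0.24 (adjusted p = 0.0388), and 4 of the 8 genes did not pass. Egln3, an oxygen-sensing prolyl hydroxylase, stood at 17.4, 23 and 19.5 CPM in WT replicates 1, 3 and 4 and at 0.573, 0.639 and 0.751 CPM in KO replicates 2, 3 and 4. Both genotypes were tight and far apart (log2 -4.91, SE 0.19, adjusted p = 9.14e-06). Of 22 tested targets outside the set 10 fell, 4 rose and 8 did not pass (median -0.41), beside 28.5% of all genes lower and 23.9% higher. The mitophagy receptor Bnip3 moved the other way from Egln3, from 15.2, 11 and 15.7 CPM in WT to 58.2, 54.5 and 55.2 CPM in KO (log2 2.01, SE 0.14, adjusted p = 0.000119), and P4ha1, a collagen hydroxylase subunit, rose by 0.53 (adjusted p = 0.00238). Ero1l, an oxidase of protein folding, fell by 0.87 (adjusted p = 0.00192) and haem oxygenase, Hmox1, by 2.10 (adjusted p = 0.00382). The libraries of Ero1l stood in the order of the neutrophil sum within both genotypes. They held 70.2, 51.9 and 68.6 CPM in WT and 32.8, 35.3 and 36 CPM in KO, and the part of neutrophil RNA was not tested.

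Promoter windows were searched for ACGTG, the core of the hypoxia response element, and CACGTG, the E-box bound by MYC and its kin, on both strands; each CACGTG also holds an ACGTG. The windows ran from 250 bases before to 50 bases after each RefSeq start (GRCm38.p6), and 31 members had at least 1. ACGTG stood in 18 of the 31, or 58.1%, beside 21.8% of all genes with a window, and CACGTG in 6, or 19.4%, beside 8.09%. All genes with a window were counted here, tested or not, and a gene with several windows has more room for a motif. Per window, ACGTG stood in 44% of the 50 member windows beside 19.6% of all 32851, and CACGTG in 12% beside 7.15%. Windows of a gene can overlap, and those of Aldoa counted the same site more than once. In 38 of the 50 member windows the first 25 bases after the start lay in an annotated transcript of the gene. By response, ACGTG stood in 2 of the 4 members that rose, 7 of the 12 that fell and had a window, and 9 of the 13 that did not pass. CACGTG stood in 2 of the 4, 1 of the 12 (Pfkfb3, not shown) and 3 of the 13. Pfkm and Pfkfb2 also held ACGTG outside a CACGTG. One stretch is shown for a member of each kind, in the gene's sense, with the motif in capitals: Pfkm and Pfkfb2 rose, Pgam1 and Slc16a3 fell, and Ldha did not pass.
Pfkm: ttaagtatgcCACGTGaagtaagtaa
Pfkfb2: ccaagcgcccCACGTGactcgcccca
Pgam1: ctccttgcttACGTGcgctccgtga
Slc16a3: ggcagcggtgACGTGcgcgggggac
Ldha: tgtcgcagcaCACGTGgagccactct
They lie at chr15:98092443-98092468 (plus strand), chr1:130715828-130715853 (minus), chr19:41911747-41911771 (plus), chr11:120949030-120949054 (plus) and chr7:46845649-46845674 (plus). A match describes letters in these windows only, and binding was not measured.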

How the data were processed

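The table deposited by the authors gives raw counts of reads, in whole numbers, for each Ensembl gene, with symbols, positions and an exon length given by the authors. Per the submitters' processing notes the build was GRCm38, also called mm10; the sources used here name no aligner, counter or strand setting. Deposited tables of normalised values and of the authors' own comparison were not used; 0 other per-sample columns stood in the table used. The deposited exon length was used only as an alternative length.

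Genes were kept by filterByExpr (minimum count 10, minimum total 15) in edgeR 4.0.16 under R 4.3.3, normalised by TMM (factors 0.932 to 1.05) and tested for genotype, without covariates, by the quasi-likelihood F test at a Benjamini-Hochberg adjusted p of 0.05. Standard errors were the fold change on the log2 scale over the square root of F. limma 3.58.1 and DESeq2 1.42.0 served as alternatives. Isozyme ratios used CPM plus 0.1 and a two-sided exact permutation test (scipy 1.17.1). Shares of a step used CPM per kilobase of the union of exons (GENCODE M21). Near-identical copies had a transcript at least 95% identical over 200 bases. No pair of libraries agreed within sampling noise: chi-square per degree of freedom was at least 11.2. Floors cover counting error only. The fit was also run on simulated counts, with the same relative spread for all genes and few genes changed. Those counts held no neutrophil differences between libraries, so that run cannot speak to them.

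Members, gene lists and markers were chosen with earlier results of these data known. The genes named are all members and, of each pathway list, up to 4 genes with the smallest p. Other alternatives were normalisation factors, low-count filters, the replicate number as a block, the mean log2 level of the neutrophil markers as a covariate, longest transcripts, copies added, and leaving out each library in turn. One marker gene of the lists is not reported here by name.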

Additional observations from a re-analysis of the deposited data

How the results depend on the processing

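Over 17 alternatives, Pfkp kept its direction and call, and every other called member kept its direction; the calls lost apart from the neutrophil covariate were those of Pfkl, Pfkfb2, Pfkfb3 and Pdk1. The count of members higher in KO was 4, and 2 to 5 with 1 library left out (2 without WT replicate 4, 5 without WT replicate 3); the count lower was 13, and 11 to 15. With the neutrophil covariate 0 members were higher and 1 lower. Pfkfb1 (0.86), Pfkfb2 (0.91), Pgam1 (-0.64) and Pdk1 (-0.53) were at least as large as without it. Pfkl (0.13 beside 0.31) was smaller. Hk3 (-0.15), Pfkfb4 (-0.18), Slc16a3 (-0.57) and Slc2a3 (-0.34) were much smaller, and the cause was not tested. The genotypes do not overlap in neutrophil level, which limits that fit.

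With the replicate number as a block, 4 members were higher and 16 lower. WT replicate 1 and KO replicate 2 each stand alone in their block. The genotype difference in that fit thus rests on replicates 3 and 4 of each genotype, with little spread left to judge it by. Numbers 3 and 4 are shared by the genotypes, and deviations of same-numbered libraries correlated at 0.03 and 0.16, so the numbers are not shown to pair the libraries. Under the block Slc2a3 stood at -1.38, Hk3 at -2.33, Pfkfb4 at -2.25 and Slc16a3 at -2.65, Pfkl was not called (0.22, adjusted p = 0.148), and Hk2 (0.31, adjusted p = 0.0399), Aldoc (-1.15), Ldhb (-1.28) and Slc16a1 (-0.31) were.

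Values that changed sign belonged to members not called by the main test, and the cause was not tested. Hk2 (-0.01) stood at 0.05 with upper-quartile factors, 0.11 with library totals alone, 0.02 in limma-voom, 0.06 with no low-count filter and 0.79 with the neutrophil covariate. Tpi1 (-0.01) stood at 0.00 with RLE factors and in DESeq2, 0.05 with upper-quartile factors and with no filter, and 0.10 with library totals alone. Pkm (-0.05) stood at 0.01 with upper-quartile factors and with no filter, 0.06 with library totals, 0.03 with the block and 0.11 with the covariate. Pdk3 (-0.05) stood at 0.00 with upper-quartile factors, 0.06 with library totals and 0.01 with no filter. Eno3 (-0.09) stood at 0.03 with library totals, 0.06 with the block and 0.05 with the covariate. Pdk2 (0.01) stood at -0.01 in limma-voom and -0.56 with the covariate, Eno1 (0.10) at -0.08 and Ldhb (-1.37) at 0.97 with the covariate. Values with 1 library left out in turn ran as follows on the log2 scale: Hk2 from -0.14 to 0.17, the second Aldoa row from -0.05 to 0.55, Tpi1 from -0.08 to 0.10, Eno3 from -0.16 to 0.03, Pkm from -0.11 to 0.06, Pdk2 from -0.13 to 0.19 and Pdk3 from -0.08 to 0.05.

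The median of all genes stood at 0.055 with upper-quartile factors and at 0.11 with library totals alone, and Ldha passed under the latter (0.31, adjusted p = 0.043). Shares of a step depend on the length used: 52 of 104 were moved by another length, including the deposited exon length, an alternative chosen after seeing the data. Depth limits Ldhb, Eno2 and Pgam2.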
